A study of Homo sapiens with 6 samples.

Results

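The transcripts described here are 24 genes of the ATF4 response and 19 genes for cytosolic aminoacyl-tRNA synthetases, 43 genes in all of the 57500 listed in each library. They were chosen by name, and each symbol was matched to 1 Ensembl gene. HepG2 is an established line of human hepatocarcinoma cells, used here with wild-type genotype. The cells were given fresh medium with glycine (10 mM) or with vehicle for 24 h. The study's standard medium already contains glycine at a lower level, so vehicle was not free of it. Total RNA was sequenced in 3 libraries per group, which the study describes as biological replicates. The libraries held between 31795489 and 58815986 counts, and the 43 genes took between 0.801% and 0.846% of them. All 43 were among the 15492 genes with enough counts to be tested. Of the 43, PPP1R15A and GOT1 rose with glycine, ALDH18A1 and GPT2 fell, and the other 39 were not called at an adjusted p of 0.05. The called genes made up 9.30% of the 43, against 13.3% of all 15492 genes. No synthetase was called in either direction.

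When an amino acid runs short, uncharged tRNA activates the kinase GCN2, which phosphorylates the translation factor eIF2. Unfolded protein in the endoplasmic reticulum does the same through the kinase PERK. General translation then slows while the ATF4 message is translated more, so the level of ATF4 protein is set largely by translation and not by the amount of its transcript. ATF4 binds with C/EBP partners to composite C/EBP-ATF elements (CAREs) and induces transporters, enzymes of amino acid synthesis and synthetases, which load each amino acid onto its tRNA.

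The CARE core was searched in reference promoter sequence to show which members carry it near their start. Windows ran from 250 bases before to 50 after each start, taken from RefSeq on build GRCh38.p14, and 36 of the 43 members had one. NUPR1, EIF4EBP1, PYCR1, GPT2, LARS1, VARS1 and YARS1 had no entry. The letters TGATGNAA, read on both strands, were in the windows of 1217 of 27305 genes (4.46%). Among the ATF4-response members they were in 6 of 20 (30%), namely CEBPG, JDP2, ASNS, GOT1, SLC3A2 and SLC7A1. Among the synthetases they were in 7 of 16 (43.75%), namely CARS1, IARS1, MARS1, AARS1, GARS1, NARS1 and TARS1. The cyclic AMP response element TGACGTCA, which was in 614 of 27305 genes (2.25%), was in 1 member, PPP1R15A. The endoplasmic reticulum stress element was in 25 of 27305 genes (0.0916%) and in 0 members. The window of ALDH18A1 held none of these 3 motifs. The sites of 3 members from the ATF4 response and 3 synthetases are shown to let the cores be compared, followed by the cyclic AMP element of PPP1R15A, and capitals mark the motif.
ASNS, chr7:97872458-97872487, minus strand: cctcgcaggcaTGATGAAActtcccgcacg
CEBPG, chr19:33374060-33374089, plus strand: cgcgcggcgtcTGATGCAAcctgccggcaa
GOT1, chr10:99430804-99430833, plus strand: gctgccgagaaTGATGCAAccaatgcaatt
IARS1, chr9:92293692-92293721, plus strand: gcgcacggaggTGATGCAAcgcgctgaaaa
AARS1, chr16:70289675-70289704, plus strand: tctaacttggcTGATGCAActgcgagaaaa
GARS1, chr7:30594834-30594863, minus strand: ggctcggagcaTGATGAAAtcgccgcgtaa
PPP1R15A, chr19:48872352-48872381, plus strand: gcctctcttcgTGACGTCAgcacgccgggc
In ASNS and CEBPG the CARE core lies on the strand of the gene, and in GOT1, IARS1, AARS1 and GARS1 it lies on the opposite strand. The cyclic AMP element of PPP1R15A reads the same on both strands. A match to these letters is a description of the sequence and not evidence of binding in HepG2 cells.

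Of the 24 ATF4-response members, 2 rose, 2 fell and 20 were not called, so 16.7% were called. Over all 15492 genes, 13.3% were called with edgeR at an adjusted p of 0.05, made up of 6.71% higher with glycine and 6.54% lower. The groups did not overlap for 8 of the 24 members (33.3%), against 31.6% of all genes. The median log2 difference between glycine and vehicle was 0.09 for these members and 0.00 for all genes. The members' median was 0.02 without glycine replicate 3 and 0.05 without vehicle replicate 1.

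**Figure D1:**
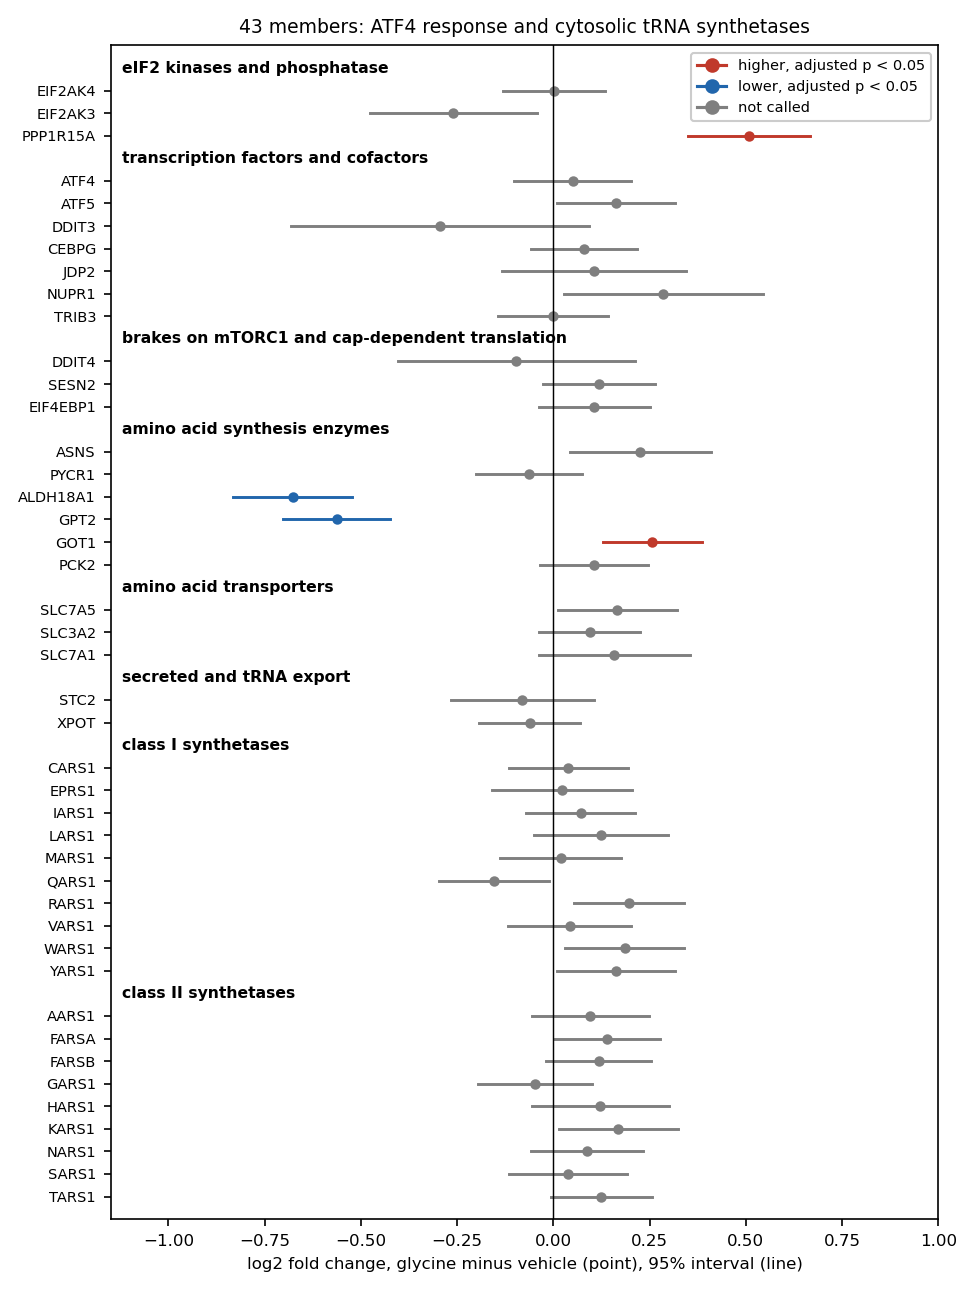
Log2 difference between glycine and vehicle (horizontal axis; point, estimate; line, 95% interval) for each of the 43 members, ordered by role, with colour marking the genes called at an adjusted p of 0.05. PPP1R15A at 0.51 and GOT1 at 0.26 lie to the right, ALDH18A1 at -0.68 and GPT2 at -0.56 to the left, and the synthetases lie between -0.15 and 0.20.

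Among the kinases and the phosphatase of eIF2, PPP1R15A rose. PPP1R15A, also known as GADD34, recruits protein phosphatase 1 to eIF2 and so reverses its phosphorylation. The gene lies on chromosome 19 from 48872392 to 48876057. Its transcript was at 22.3, 22.8 and 25.2 CPM (counts scaled to library size) in vehicle replicates 1 to 3 and at 31.5, 34.1 and 34.3 CPM in glycine replicates 1 to 3. Every glycine library lay above every vehicle library, and the means were 23.4 ± 1.54 and 33.3 ± 1.59 CPM (SD, n = 3). The log2 difference was 0.51 ± 0.0734 (SE; 95% interval 0.35 to 0.67; edgeR adjusted p = 0.000527), a rise of 42.2%. The 2 kinases were not called. EIF2AK4, which encodes GCN2, had a log2 difference of 0.00 with an interval from -0.13 to 0.13. EIF2AK3, which encodes PERK, had a log2 difference of -0.26 (interval -0.48 to -0.04; edgeR adjusted p = 0.112). It was called lower without vehicle replicate 2, at -0.35 (edgeR adjusted p = 0.0314). Other annotated genes cover 15.1% of its exon length.

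None of the 7 transcription factors and cofactors was called, and in none of them were the groups apart. ATF4 itself was at 312, 296 and 328 CPM with vehicle and at 301, 327 and 341 CPM with glycine, so the groups overlapped. Its log2 difference was 0.05, with an interval from -0.10 to 0.20 that leaves a change of more than 0.20 in either direction outside it. The related factor ATF5 had a log2 difference of 0.16 (interval 0.01 to 0.32; edgeR adjusted p = 0.154). Other annotated genes cover 21.2% of its exon length. CEBPG, a C/EBP partner of ATF4, was at 0.08, and JDP2, a factor of the AP-1 family, at 0.11. TRIB3, a pseudokinase that acts as a feedback inhibitor of ATF4, was at 0.00, between -0.14 and 0.14. The stress cofactor NUPR1 ranged from 30.7 to 45.4 CPM with vehicle and from 41.0 to 51.4 CPM with glycine. Its log2 difference was 0.29 (interval 0.03 to 0.54; edgeR adjusted p = 0.142), and without vehicle replicate 3 it was called higher at 0.42 (edgeR adjusted p = 0.0241). DDIT3, which encodes CHOP, was among the lowest members, at 4.17 to 7.79 CPM over the 6 libraries. Its interval ran from -0.68 to 0.09, and 28.0% of its exon length is shared with MARS1 on the other strand. Reads of these genes could not be told apart there if counting did not use strand.

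The 3 members that restrain mTORC1 or cap-dependent translation were not called. DDIT4, which restrains mTORC1 through the TSC complex, varied from 30.6 to 46.8 CPM over the libraries and had a log2 difference of -0.10 (interval -0.40 to 0.21). Another annotated gene covers 41.2% of its exon length. SESN2, a leucine sensor upstream of mTORC1, was at 0.12 (interval -0.03 to 0.26), and its groups did not overlap. EIF4EBP1, which binds the cap-binding protein eIF4E, was at 0.11 (interval -0.04 to 0.25).

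The amino acid enzymes held 3 of the 4 called members, and these moved in both directions. ALDH18A1 fell. It encodes the mitochondrial enzyme that turns glutamate into the precursor of proline and ornithine, and lies on chromosome 10 from 95605929 to 95656706. Its transcript was at 531, 584 and 517 CPM with vehicle and at 358, 336 and 327 CPM with glycine. The groups were far apart, with means of 544 ± 35.2 and 340.3 ± 15.8 CPM (SD, n = 3). The log2 difference was -0.68 ± 0.0716 (SE; interval -0.83 to -0.52; edgeR adjusted p = 4.12e-05). PYCR1, which completes proline synthesis in mitochondria, was not called at -0.06 (interval -0.20 to 0.07), and other annotated genes cover 29.7% of its exon length.

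GPT2, the mitochondrial alanine aminotransferase, also fell. The gene lies on chromosome 16 from 46884378 to 46931297. Its transcript was at 670.3, 701 and 686 CPM with vehicle and at 461, 467 and 464 CPM with glycine. The glycine libraries were nearly equal and all far below vehicle, with means of 686 ± 15.2 and 464 ± 3.07 CPM (SD, n = 3). The log2 difference was -0.56 ± 0.0642 (SE; interval -0.70 to -0.42; edgeR adjusted p = 7.88e-05). PPP1R15A, ALDH18A1 and GPT2 were called under all 12 alternative settings.

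GOT1, the cytosolic aspartate aminotransferase of the malate-aspartate shuttle, rose. It lies on chromosome 10 from 99396870 to 99430624. Its transcript was at 110.2, 115 and 115 CPM with vehicle and at 130.4, 139 and 138 CPM with glycine, without overlap. The log2 difference was 0.26 ± 0.0599 (SE; interval 0.13 to 0.39; edgeR adjusted p = 0.0126). The call was lost without vehicle replicate 1 (edgeR adjusted p = 0.0656) and without glycine replicate 3 (edgeR adjusted p = 0.0673), at log2 differences of 0.23 and 0.24.

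ASNS, asparagine synthetase, is a well-studied ATF4 target. It was at 65.9, 83.9 and 67.0 CPM with vehicle and at 85.9, 83.9 and 83.8 CPM with glycine. Vehicle replicate 2 stood with the glycine libraries and apart from the other vehicle libraries. The log2 difference was 0.23 ± 0.0848 (SE; interval 0.04 to 0.41; edgeR adjusted p = 0.101), and without vehicle replicate 2 it was called at 0.35 (edgeR adjusted p = 0.00483). PCK2, the mitochondrial phosphoenolpyruvate carboxykinase, was not called at 0.11 (interval -0.03 to 0.25), although its groups did not overlap.

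**Figure D2:**
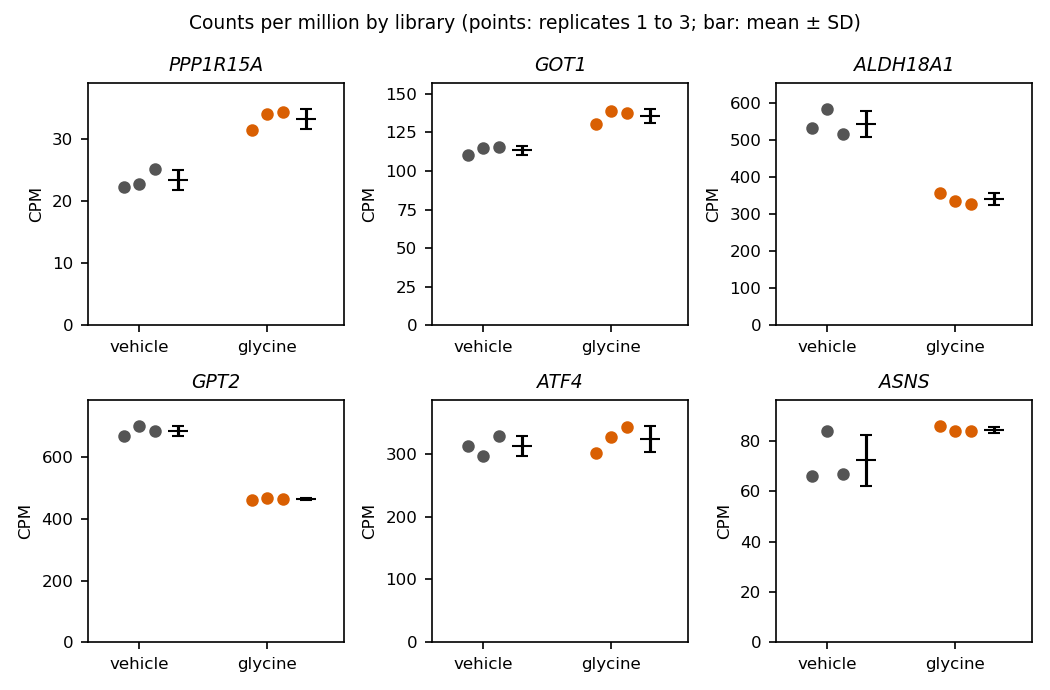
CPM in each library (points, replicates 1 to 3 from left to right; bar, mean ± SD, n = 3) for the 4 called members, ATF4 and ASNS, with each vertical axis starting at 0. The groups are apart in the called members and overlap in ATF4, and in ASNS the vehicle libraries are at 65.9, 83.9 and 67.0 CPM.

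The 3 amino acid transporters had estimates above 0 and were not called. SLC7A5, the light chain of the leucine exchanger LAT1, was at 926 to 1013 CPM with vehicle and at 1062 to 1118 CPM with glycine. Its log2 difference was 0.17 (interval 0.01 to 0.32; edgeR adjusted p = 0.152). SLC3A2, the heavy chain that carries LAT1 to the membrane, was at 0.09 (interval -0.04 to 0.23). SLC7A1, which takes up arginine and lysine, was at 0.16 (interval -0.04 to 0.35). The secreted glycoprotein STC2 and the tRNA export factor XPOT were at -0.08 and -0.06, and neither was called.

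Of the 19 cytosolic synthetases, 0 were called with edgeR, against 13.3% of all genes. Of the 19, 6 had an unadjusted p under 0.05 in edgeR (QARS1 below 0, the other 5 above 0). The same count over all genes was 4225 of 15492. DESeq2 and limma-voom also called 0 of the 19. The estimates were small, between -0.15 for QARS1 and 0.20 for RARS1. With all 6 libraries, 17 of 19 were above 0 under every scaling, filter and tool tried. Over all genes 7867 of 15492 were above 0 in edgeR. Leaving out 1 library gave from 12 of 19 without vehicle replicate 1 to 18 of 19 without vehicle replicate 2. The median log2 difference was 0.10, and 9 of 19 lay within 0.1 of 0 (47.4%), against 39.0% of all genes. With all 6 libraries, no 95% interval reached past 0.34, which is a 1.27-fold difference. Each interval covers 1 gene at a time, not all 19 together. No intervals were computed without vehicle replicate 2, where the WARS1 estimate was 0.26.

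GARS1, which loads glycine onto its tRNA and so uses the amino acid that was added, was at 192, 222 and 194 CPM with vehicle and at 199, 198 and 192 CPM with glycine. The groups overlapped, and the log2 difference was -0.05 (interval -0.20 to 0.10). QARS1, the glutaminyl synthetase, was the lowest estimate at -0.15 (interval -0.30 to -0.01; edgeR adjusted p = 0.152), and every glycine library lay below every vehicle library. RARS1, the arginyl synthetase, was the highest. It was at 107, 118 and 111 CPM with vehicle and at 135, 129 and 121 CPM with glycine, without overlap. This gave a log2 difference of 0.20 (interval 0.05 to 0.34; edgeR adjusted p = 0.0676).

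The synthetases fall into 2 structural classes, and some of them form the multisynthetase complex. The median log2 difference was 0.06 over the 10 of class I and 0.12 over the 9 of class II. It was 0.07 over the 7 of the complex and 0.11 over the 12 outside it. These medians are descriptions, and the difference between them was not tested. They moved with single libraries. For class I the median was 0.02 without vehicle replicate 3, 0.03 without vehicle replicate 1, 0.04 without glycine replicate 1 and 0.12 without vehicle replicate 2. For class II it ran from 0.07 without glycine replicate 1 or vehicle replicate 1 to 0.15 without vehicle replicate 2. For the complex it was 0.03 without glycine replicate 1 or vehicle replicate 3 and 0.12 without vehicle replicate 2. Without vehicle replicate 1 it was 0.07 both inside and outside the complex. In class I, WARS1 (tryptophan) was at 0.18, YARS1 (tyrosine) at 0.16, LARS1 (leucine) at 0.12, IARS1 (isoleucine) at 0.07, and VARS1 (valine) and CARS1 (cysteine) at 0.04. EPRS1, which serves both glutamate and proline and was counted with class I although its prolyl part is of class II, and MARS1 (methionine) were at 0.02. In class II, KARS1 (lysine) was at 0.17, FARSA and FARSB, the subunits for phenylalanine, at 0.14 and 0.12, TARS1 (threonine) and HARS1 (histidine) at 0.12, AARS1 (alanine) at 0.10, NARS1 (asparagine) at 0.09 and SARS1 (serine) at 0.04. The groups did not overlap for 5 of the 19 (26.3%), against 31.6% of all genes, and these were QARS1, RARS1, FARSA, FARSB and TARS1.

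Vehicle replicate 2 stood apart from the other vehicle libraries for the synthetases. The summed level of the 19 transcripts was 3319, 3758 and 3345 CPM in vehicle replicates 1 to 3 and 3735, 3683 and 3510 CPM in glycine replicates 1 to 3. Vehicle replicate 2 thus lay above every glycine library, while vehicle replicates 1 and 3 lay below all of them. It was the highest vehicle library for 18 of the 19 synthetases (94.7%), against 33.8% of all genes and 8 of the 24 ATF4-response members. This share describes 1 library, and the 19 transcripts share it. All 19 were above the vehicle mean in that library, by a median of 0.12 on the log2 scale. Without vehicle replicate 2, RARS1, WARS1, YARS1 and KARS1 were called higher with glycine, at log2 differences of 0.23 to 0.26, and the median of the 19 was 0.15. Without vehicle replicate 1, 0 were called, 12 of 19 were above 0 and the median was 0.07. Leaving out vehicle replicate 3 put the median at 0.06, and leaving out glycine replicate 1 put it at 0.05, the lowest of the 6 such fits. Vehicle replicate 2 also had the highest share of mitochondrial transcripts, 2.82% against 1.94% to 2.49% in the others. It had 5366 CPM of albumin (ALB) against 8660 and 9038 CPM in the other vehicle libraries and 4682 to 6405 CPM with glycine. Their part in the synthetase levels was not tested.

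**Figure D3:**
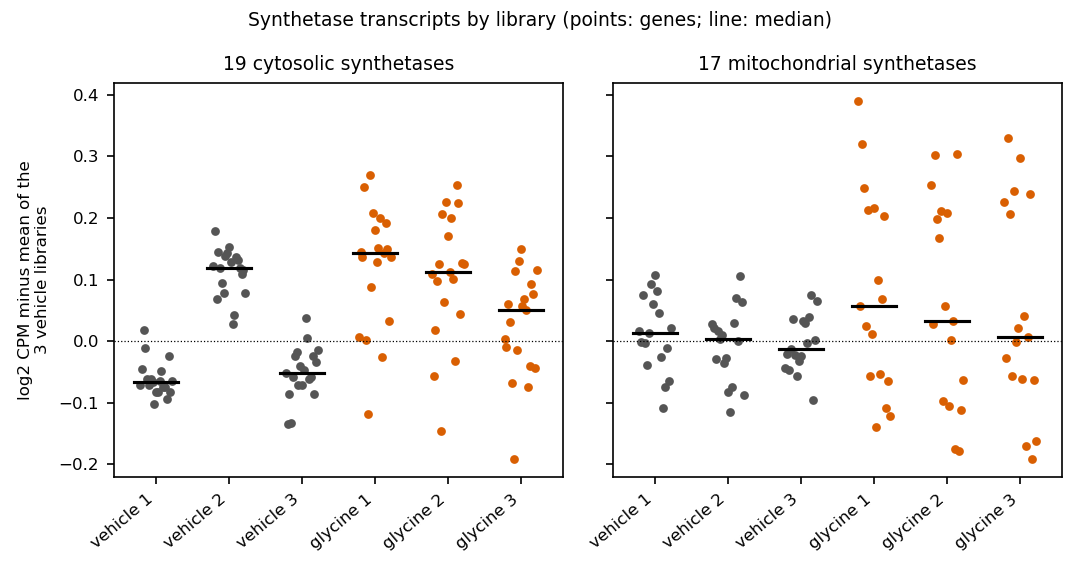
Log2 CPM of each synthetase gene minus its mean over the 3 vehicle libraries, by library (points, genes; line, median), for 19 cytosolic and 17 mitochondrial synthetases. For the cytosolic genes the median of vehicle replicate 2 is 0.12, beside 0.14, 0.11 and 0.05 in glycine replicates 1 to 3, and for the mitochondrial genes the vehicle medians are 0.01, 0.00 and -0.01.

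Genes of the same pathway outside the 43 were read from 4 further lists. Of 23 other ATF4 targets 20 could be tested, and CHAC1, FGF21 and NIBAN1 had too few counts. None of the 20 was called higher with edgeR, 2 were called lower, and 7 had an unadjusted p under 0.05, against 6.54% of all genes called lower and 4225 of 15492 at that unadjusted p. The number called lower was 4 without vehicle replicate 2, where VEGFA and HERPUD1 were added, and 4 without glycine replicate 3, where VEGFA and KLHL24 were added. The median log2 difference was -0.10, and 17 of 20 were below 0, against 7625 of 15492 genes. With total count scaling or without vehicle replicate 2, 15 of 20 were below 0. Without a filter on low counts 23 were tested, and 18 of them were below 0. The glycine transporter SLC6A9 was at 33.9, 38.7 and 36.0 CPM with vehicle and at 19.9, 20.2 and 19.5 CPM with glycine, a log2 difference of -0.86. INHBE, a secreted subunit of the activin family, was at 27.8, 26.2 and 30.6 CPM with vehicle and at 20.3, 20.8 and 22.6 CPM with glycine. It differed by -0.41 on the log2 scale (edgeR adjusted p = 0.00426). Both were lower in every glycine library than in any vehicle library. The serine synthesis genes PHGDH, PSAT1 and PSPH, which lie on the route to glycine, were not called.

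Of 15 further genes of the eIF2 pathway, 0 were called higher and 1 was called lower (6.67% called, against 13.3% of all genes). Without vehicle replicate 2, EIF2B3 and EIF2S1 were called higher, and EIF2B3 was also called with total count scaling and without a filter on low counts. EIF2S3, the gamma subunit of eIF2, had a log2 difference of -0.24 (interval -0.37 to -0.11; edgeR adjusted p = 0.0186). The call was lost without vehicle replicate 1 and without each of glycine replicates 1, 2 and 3, at adjusted p-values of edgeR up to 0.0708. The guanine nucleotide exchange factor EIF2B5 was at 29.9 CPM in glycine replicate 3 and between 48.1 and 52.5 CPM in the other 5 libraries. It was not called, except as lower when no filter on low counts was used.

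The mitochondrial synthetases, which serve translation of the mitochondrial genome, were read next. Of 17, 6 were called higher (35.3%, against 6.71% of all genes) and 0 lower. The median log2 difference was 0.03, and 10 of 17 were above 0, against 7867 of 15492 genes. AARS2 (alanine) was at 33.3, 33.6 and 32.0 CPM with vehicle and at 43.2, 39.3 and 38.5 CPM with glycine. Every glycine library lay above every vehicle library, and the difference on the log2 scale was 0.29 ± 0.0682 (SE; edgeR adjusted p = 0.0134). Without glycine replicate 1 it was no longer called (edgeR adjusted p = 0.0977). EARS2 (glutamate) was at 0.22, TARS2 (threonine) at 0.25 and HARS2 (histidine) at 0.22. Of the 12 alternative settings, EARS2 was called in 6, TARS2 in 7 and HARS2 in 3. Other annotated genes, HARS1 among them, cover 21.8% of the exon length of HARS2. In turn, HARS2 is among the genes that cover 18.3% of the exon length of HARS1. The count was lower when any 1 library was left out. It was 3 without vehicle replicate 1, 2 or 3, 1 without glycine replicate 1, and 2 without glycine replicate 2 or 3.

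The last list held 5 cytosolic synthetase genes outside the 19, of which 2 were higher, 1 lower and 2 not called, against 13.3% of all genes called. AIMP1 and AIMP2 encode scaffold proteins of the multisynthetase complex. AIMP1 was at 51.4, 50.1 and 52.9 CPM with vehicle and at 64.5, 68.0 and 65.0 CPM with glycine, a log2 difference of 0.36 (edgeR adjusted p = 0.00197). AIMP2 had a log2 difference of 0.31 (edgeR adjusted p = 0.00758), and EIF2AK1 covers 28.9% of its exon length. The enzymes that they bind were not called, but whether scaffold and enzyme transcripts differ in response was not tested. TARS3, a second threonyl synthetase, was at 12.2, 11.6 and 11.5 CPM with vehicle and at 9.27, 8.22 and 8.98 CPM with glycine. It differed by -0.42 on the log2 scale (edgeR adjusted p = 0.00672). AIMP1, AIMP2 and TARS3 were called under all 12 alternatives. EEF1E1, a further scaffold protein of the complex, was at -0.01 and was not called.

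**Figure D4:**
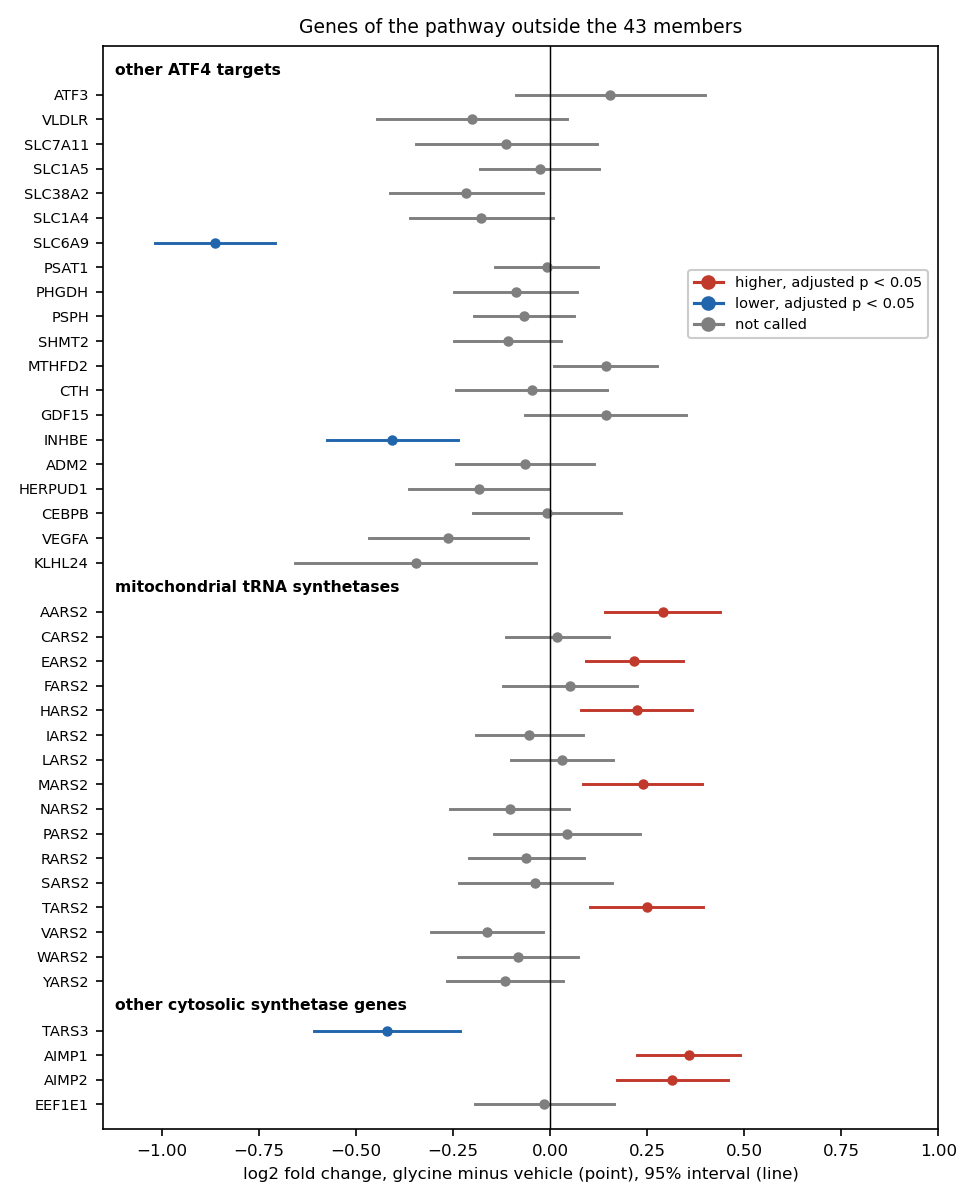
Log2 difference between glycine and vehicle (point, estimate; line, 95% interval) for other ATF4 targets, mitochondrial synthetases and further cytosolic synthetase genes, without the genes not reported here. SLC6A9 at -0.86, INHBE at -0.41 and TARS3 at -0.42 were called lower, and the genes drawn as called higher run from EARS2 at 0.22 to AIMP1 at 0.36.

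Levels were compared between genes as TPM, in which counts are divided by exon length before scaling to the library. With vehicle the highest member was SLC7A5, at 707 ± 15.3 TPM (SD, n = 3), and the lowest was JDP2, at 6.90 ± 0.299 TPM. ALDH18A1 (503 ± 25.8 TPM) and PYCR1 (501 ± 6.55 TPM), enzymes of the same route, came next and did not differ beyond their spread. With glycine they stood at 318 ± 20.5 and 485 ± 24.5 TPM. ATF4 was at 433 ± 29.4 and EIF4EBP1 at 419 ± 15.8 TPM with vehicle, again within their spread. GPT2 was at 376 ± 3.51 TPM with vehicle and at 257 ± 8.37 TPM with glycine. PPP1R15A was far lower, at 26.4 ± 1.63 and 37.9 ± 1.90 TPM. The synthetases ran from CARS1 at 14.3 ± 0.749 TPM to AARS1 at 262 ± 14.4 TPM with vehicle, and GARS1 was at 170.1 ± 10.5 TPM.

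**Figure D5:**
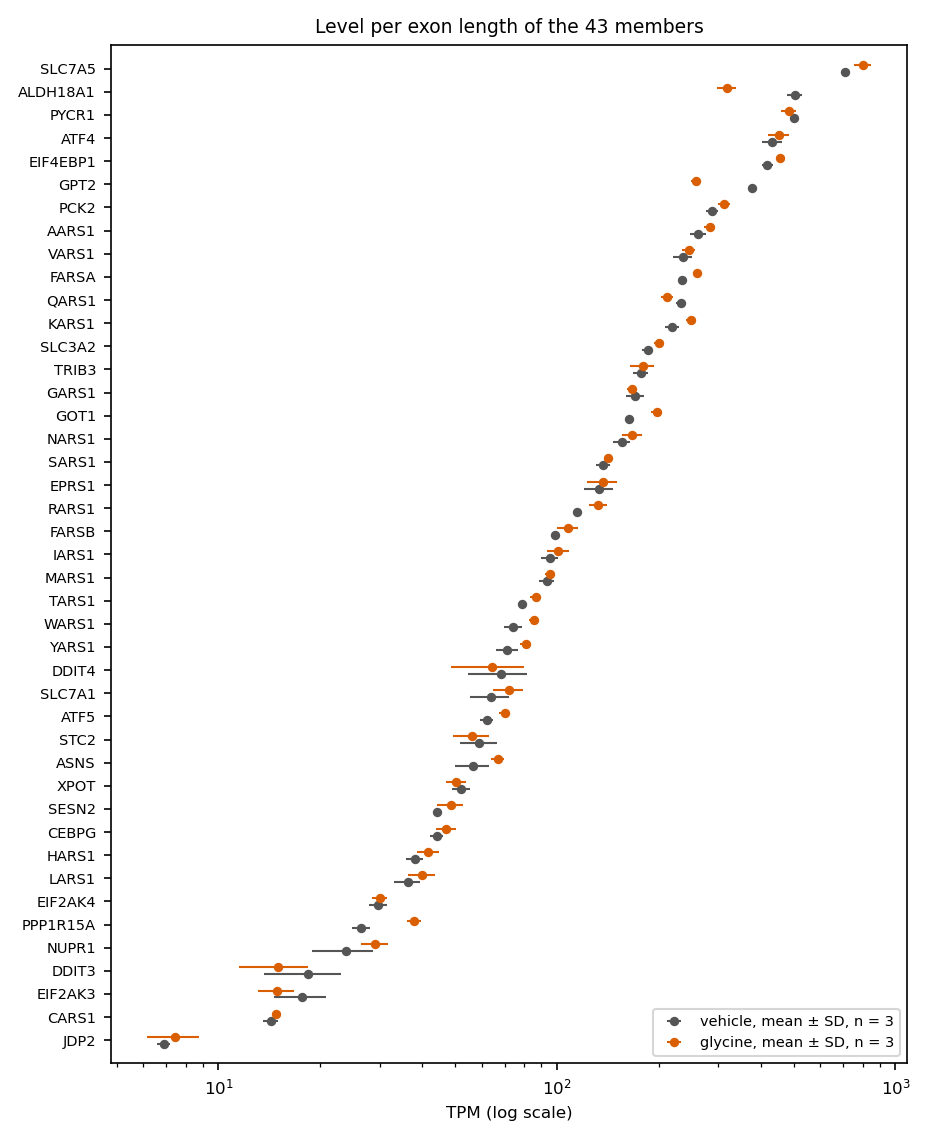
Mean level of each of the 43 members in TPM on a log scale (points, mean; line, SD; n = 3 per group), ordered by the vehicle level. In most members the groups lie close together, and those of ALDH18A1, GPT2 and PPP1R15A lie apart.

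The label of the cells was checked by markers. All 8 hepatocyte markers were detected, with a summed level of 30421 to 34371 CPM with vehicle and 26729 to 30330 CPM with glycine, and of these APOA1 was called lower and KRT18 higher. Of the 4 leukocyte markers, CD3E was at 0 counts in all libraries and PTPRC at no more than 0.0860 CPM. The list summed to 2124 to 2327 CPM with vehicle and 1692 to 1851 CPM with glycine, nearly all of it LYZ. LYZ was called lower, while CD68 was called higher at 1.99 to 2.22 CPM with glycine. Other annotated genes cover 34.0% of the exon length of LYZ and 85.8% of that of CD68. The 3 endothelial markers summed to 5.45 to 5.76 and 4.597 to 5.26 CPM with vehicle and glycine, and of these VWF, at under 1 CPM, was called lower. The 4 fibroblast markers summed to 27.0 to 31.0 and 21.2 to 21.9 CPM. Among them COL1A1 was called higher at a log2 difference of 1.03 and PDGFRB lower at -0.66, while DCN and COL3A1 had too few counts to be tested. The part of these markers in the results above was not tested. In bulk RNA, fewer cells expressing a gene and less of its RNA per cell cannot be told apart.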

How the data were processed

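Per the labels, total RNA of HepG2 cells was sequenced after 24 h with glycine (10 mM) or vehicle, in 3 libraries per group. The authors deposited whole-number counts of reads per gene for each library, not normalized. The submitters' processing notes name Trimmomatic 0.36, STAR 2.5.2b, featureCounts from Subread 1.5.2 and build GRCh38. The strand setting and the annotation release are not given in the sources used here, so reads of overlapping genes may be shared or misassigned. Of 57500 genes, 56898 were in GENCODE release 29. Counts assigned to named pseudogenes came to at most 0.333% of the counts of the member they are named after. Reads of pseudogenes assigned to a member were not measured.

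The test on the counts was two-sided and by quasi-likelihood (edgeR 4.0.16, R 4.3.3), with group as the only term, after the edgeR expression filter (minimum count 10, minimum total 15) and scaling by the trimmed mean of M values. P-values were adjusted by Benjamini-Hochberg over 15492 genes, with a threshold of 0.05. A single count was worth 0.0170 to 0.0315 CPM, and precision from depth covers counting error only. The study defines biological replicates as experiments on different days. The p-values weigh the group difference against the spread between these samples. The labels give no day, so day was not a term in the test. Chi-square tests of counts found no library deposited in duplicate. The scripts were tested on simulated data. The alternatives were DESeq2 1.42.0 size factors and Wald test, total count scaling, no filter, limma 3.58.1 with voom, a block on replicate number, and leaving out each library in turn.

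The members, the lists and the rule for naming genes (every member, and up to 5 called genes in each direction of a further list by smallest p) were chosen with earlier results of these data known. Some genes that the rule or the lists name are not reported here, though they stay in the counts. Promoter sequences were taken from RefSeq (GRCh38.p14) and matched by symbol.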

Additional observations from a re-analysis of the deposited data

How the results depend on the processing

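Of the ATF4-response members, 2 were higher and 2 lower. Without a filter on low counts 4 were higher (ASNS and NUPR1 added) and 3 lower (EIF2AK3 added), and leaving out 1 library in turn gave 1 to 3 higher and 2 to 3 lower. For the cytosolic synthetases, total count scaling gave 1 higher (RARS1), and leaving out 1 library gave 0 to 4, with 4 without vehicle replicate 2 and 0 in the other 5 cases. For the 4 further lists together, 8 were higher and 4 lower. A replicate block gave 5 higher, and leaving out 1 library gave 3 to 7 higher and 3 to 6 lower. Of the mitochondrial synthetases 3 were higher with the replicate block and 4 with the DESeq2 Wald test. Over all genes, leaving out 1 library gave 587 to 926 higher and 655 to 1010 lower, with fewer samples in each fit. Total count scaling put 55.9% of called genes on the higher side, against 50.7% with the trimmed mean of M values. No result reversed direction as a call.

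Replicate numbers were tested as a block, which gave 866 genes higher and 918 lower and left the member counts at 2 higher and 2 lower. Deviations from the group means of libraries sharing a number correlated at -0.058, -0.027 and -0.003, against -0.198 to 0.214 for other pairs. The highest were 0.214 for vehicle replicate 2 with glycine replicate 1 and 0.214 for vehicle replicate 1 with glycine replicate 3. Vehicle replicate 3 with glycine replicate 2 was at 0.180. A shared number therefore did not go with a shared deviation, and pairing across numbers was not tested.

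Groups of 3 limit precision. The SE of a member's log2 difference had a median of 0.071, beside a median log2 difference of 0.10 in the synthetases.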

Other observations

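Enzymes next to ALDH18A1 and GPT2 in glutamate, proline and alanine metabolism were read after the values of those members had been seen, and were not refitted under the alternatives. PYCR3, which also completes proline synthesis, was called higher, at a log2 difference of 0.28 (edgeR adjusted p = 0.0280). ALDH18A1 and this reductase moved in opposite directions. ALDH4A1, an enzyme of proline breakdown, was at 0.20 and was not called (edgeR adjusted p = 0.0602). PRODH, which acts before it, had too few counts to be tested.

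OAT, which links ornithine to the same intermediate, was called lower at -0.22 (edgeR adjusted p = 0.0320), as was the glutamate dehydrogenase GLUD1 at -0.25 (edgeR adjusted p = 0.0362). GPT, the cytosolic alanine aminotransferase, was at 10.4, 10.9 and 12.4 CPM with vehicle and at 8.15, 6.95 and 7.94 CPM with glycine. Its log2 difference was -0.56 (edgeR adjusted p = 0.00296), beside -0.56 for GPT2. GOT2, the mitochondrial partner of GOT1, was at 0.07 (interval -0.08 to 0.23) and was not called.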
